A study of Mus musculus with 4 samples.

Results

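The 31 genes described here are imprinted in the mouse: 1 parental copy is active and the other is silent. They were taken as a named list, sorted into 15 clusters of neighbours, and read through the peaks that overlapped their gene bodies with 50 kb added on each side (mm10). The windows of the 15 clusters held 434 peaks of 198860 (wild type) and 470 of 222257 (knockout) on day 0, and 429 of 189571 (wild type) and 502 of 227878 (knockout) on day 5. The same reading was made for 21883 protein-coding genes as a background. The libraries came from ATAC-seq of single nuclei, where a transposase inserts adapters into accessible DNA, in embryonic stem cells derived from mouse blastocysts. The wild-type and Cdc14ab KO cells were each taken at day 0, in LIF medium that keeps stem cells undifferentiated, and at day 5, after that medium had been exchanged for N2B27 with EGF and FGF2 to induce neural differentiation. Cdc14a and Cdc14b encode phosphatases of the cell cycle. All 4 libraries carry the label clone 3, so each genotype was seen under a single clone number, and a difference between cell lines and an effect of the knockout cannot be told apart. The cells had been grown over feeder cells, which were removed on gelatin before the assay. Each group held 1 library, so the differences below have no replicate check and none was tested. Where 4 values stand in a row, they are wild type then knockout on day 0, followed by wild type then knockout on day 5.

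In imprinting, a DNA methylation mark set in the egg or the sperm is kept on that parental copy after fertilisation. Many of the marks lie at gene starts, where the unmarked copy is open and used and the marked copy is closed. The zinc finger protein ZFP57 binds a short methylated motif at such control regions and keeps the mark in stem cells. Other clusters are governed by a mark at a distance, as upstream of H19, or by a long noncoding RNA such as Kcnq1ot1 or Airn that silences its neighbours on the same copy. The peak lists do not separate the parental copies, so an open start can come from 1 copy or from both.

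One library stood apart. The wild-type library of day 5 had peaks at the starts of 3 of 3 Y-linked genes examined (Eif2s3y, Uty and Ddx3y), and the other libraries had 0 of 3. Whether the 4 libraries come from the same cell line is not given in the sources used here, so in every comparison that uses that library a difference between cell lines and one between days or genotypes cannot be told apart. Over the whole Y chromosome the libraries listed 16, 16, 20 and 14 peaks, and over the X chromosome 4273, 5565, 4112 and 6659. The knockout thus had more X peaks on both days. Autosomal peaks numbered 194510, 216617, 185384 and 221143, so in proportion its excess on the X was larger than on the autosomes. The cause of this and its part in the imprinted results were not tested. At 6 loci of feeder cells and fibroblasts (Col1a1, Col1a2, Col3a1, Postn, Thy1 and Twist1), the summed peaks covered 74.7 kb (wild type) and 90.4 kb (knockout) on day 0, and 84.0 kb (wild type) and 83.5 kb (knockout) on day 5. None of the 6 was at 0 in any library, and 5, 6, 6 and 6 of them had a start peak in that order. Their median log2 ratio, relative to the median protein-coding locus, was 0.50 between the days in wild type, with 5 of 6 above 0, and −0.08 in the knockout, with 0 of 6 above 0. Between the genotypes it was 0.20 at day 0 and −0.47 at day 5. The part of these loci in the imprinted results was not tested, and comparisons that leave out the wild-type library of day 5 (between the genotypes at day 0, and between the days in the knockout) are given beside those that use it. Start peaks at 5 cell state genes (Pou5f1, Nanog, Sox2, Pax6 and Sox1) were listed in every library. Their locus ratios differed more. Between the days, Nanog and Pou5f1 had −0.38 and −0.24 in wild type, and −0.03 and −0.03 in the knockout. The other 3 were above 0 in both genotypes. Whether these ratios differ between the genotypes was not tested.

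Promoter sequences show where the open starts lie and which of them carry the ZFP57 motif. RefSeq (GRCm38.p6) promoters, from 250 bases before to 50 bases after a start, matched 24 of the 31 genes with 37 starts. H19, Cdkn1c, Kcnq1, Peg10, Sgce, Rtl1 and Impact had no entry. The letters TGCCGC, searched on both strands, occurred in 10 of the 37 promoters (27.0%) and in 3000 of 21262 promoters of protein-coding genes (14.1%). Among starts of genes listed with a germline methylation mark at a start, 6 of 15 held the letters (40.0%). Of these 6, 2 are Mest starts whose windows overlap almost fully. Among the other imprinted starts, 4 of 22 did (18.2%). All Gnas and Grb10 starts were placed with the others, among them the second Grb10 start, which held the letters. The contrast depends on that placing. The core motif of CTCF at the H19 control region, also searched on both strands, was in 0 of the 37 promoters and in 10 of all (0.0470%). Median GC content was 57.7% in the imprinted promoters and 56.3% in all.

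The following 4 promoters held TGCCGC, or GCGGCA where it lies on the other strand, in capitals, and in each of them a peak of every library covered a motif. Snrpn (chr7:60005150-60005449, minus strand), Nap1l5 (chr6:58907077-58907376, minus strand) and Plagl1 (chr10:13090582-13090881, plus strand) have a germline mark at a start, and Meg3 (chr12:109540746-109541045, plus strand) takes its mark from a distant region.
Snrpn: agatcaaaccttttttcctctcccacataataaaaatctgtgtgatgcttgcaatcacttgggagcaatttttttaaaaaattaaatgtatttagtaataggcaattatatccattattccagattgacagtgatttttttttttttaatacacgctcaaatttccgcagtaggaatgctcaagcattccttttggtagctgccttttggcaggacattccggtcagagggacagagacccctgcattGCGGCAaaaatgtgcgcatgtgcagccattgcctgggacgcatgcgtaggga
Nap1l5: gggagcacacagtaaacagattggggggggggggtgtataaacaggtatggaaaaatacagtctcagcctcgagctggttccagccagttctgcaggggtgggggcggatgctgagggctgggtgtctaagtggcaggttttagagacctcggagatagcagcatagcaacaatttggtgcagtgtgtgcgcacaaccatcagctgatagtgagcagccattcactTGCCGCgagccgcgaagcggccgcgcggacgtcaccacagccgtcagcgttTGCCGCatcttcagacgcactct
Plagl1: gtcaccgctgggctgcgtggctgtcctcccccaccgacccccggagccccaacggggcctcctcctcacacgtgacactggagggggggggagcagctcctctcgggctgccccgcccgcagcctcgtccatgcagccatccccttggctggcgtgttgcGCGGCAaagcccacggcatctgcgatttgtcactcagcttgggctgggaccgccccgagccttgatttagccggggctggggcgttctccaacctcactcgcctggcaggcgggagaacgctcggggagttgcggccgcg
Meg3: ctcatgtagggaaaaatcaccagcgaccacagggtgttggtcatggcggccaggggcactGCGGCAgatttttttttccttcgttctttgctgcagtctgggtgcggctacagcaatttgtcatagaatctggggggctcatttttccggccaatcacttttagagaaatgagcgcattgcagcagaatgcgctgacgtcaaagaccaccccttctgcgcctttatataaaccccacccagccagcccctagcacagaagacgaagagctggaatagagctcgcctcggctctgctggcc

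A further pair of promoters is shown because their peaks differed between the libraries. Airn (chr17:12741061-12741360, plus strand) and the last Gnas start (chr2:174329756-174330055, plus strand) held neither motif, so no letter is in capitals. The Airn window held 3 CpG at 45.7% GC, and the Gnas window held 40 CpG at 81.7% GC.
Airn: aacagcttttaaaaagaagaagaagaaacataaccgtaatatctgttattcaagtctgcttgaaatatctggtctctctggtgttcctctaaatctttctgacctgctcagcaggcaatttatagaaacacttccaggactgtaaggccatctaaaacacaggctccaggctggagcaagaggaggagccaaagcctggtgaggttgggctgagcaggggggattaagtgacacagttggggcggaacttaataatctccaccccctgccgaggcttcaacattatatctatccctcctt
Gnas: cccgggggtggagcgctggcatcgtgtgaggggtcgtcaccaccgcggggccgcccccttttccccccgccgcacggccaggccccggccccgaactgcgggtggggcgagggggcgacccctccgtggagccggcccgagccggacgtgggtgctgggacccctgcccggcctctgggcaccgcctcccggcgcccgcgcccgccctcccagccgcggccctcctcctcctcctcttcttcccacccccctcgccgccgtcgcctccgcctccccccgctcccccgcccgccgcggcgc

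Nearly all imprinted genes had a peak near at least 1 of their starts in both genotypes and on both days. A peak lay within 1 kb of a start of 30 of the 31 genes in every one of the 4 libraries (96.8%, 95% exact binomial interval 83.3 to 99.9, which covers counting error only). The same share among protein-coding genes was 73.6% (wild type) and 74.6% (knockout) on day 0, and 73.4% (wild type) and 75.2% (knockout) on day 5. A start peak in all 4 libraries was listed for 29 members against 69.9% of protein-coding genes, and 0 members against 21.6% lacked one throughout. Leaving out the wild-type library of day 5, 29 members had a start peak in the remaining 3. The 12 genes listed with a germline mark at a start and the 10 genes expressed from the maternal copy had a start peak in each library. For 7 members without a promoter entry the more covered gene end was used, as for 4392 protein-coding genes, which favours a peak there. A gene with several starts counted when any had a peak. Promoter entries gave 37 starts for 24 members and 21262 for 17491 protein-coding genes. Under the stricter rule of a peak over a start base, Igf2, Mkrn3, Dlk1, Rtl1 and Impact had none in any library. Airn had one in 3 libraries, and the remaining members in all 4. That rule was not applied to all protein-coding genes.

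**Figure D1:**
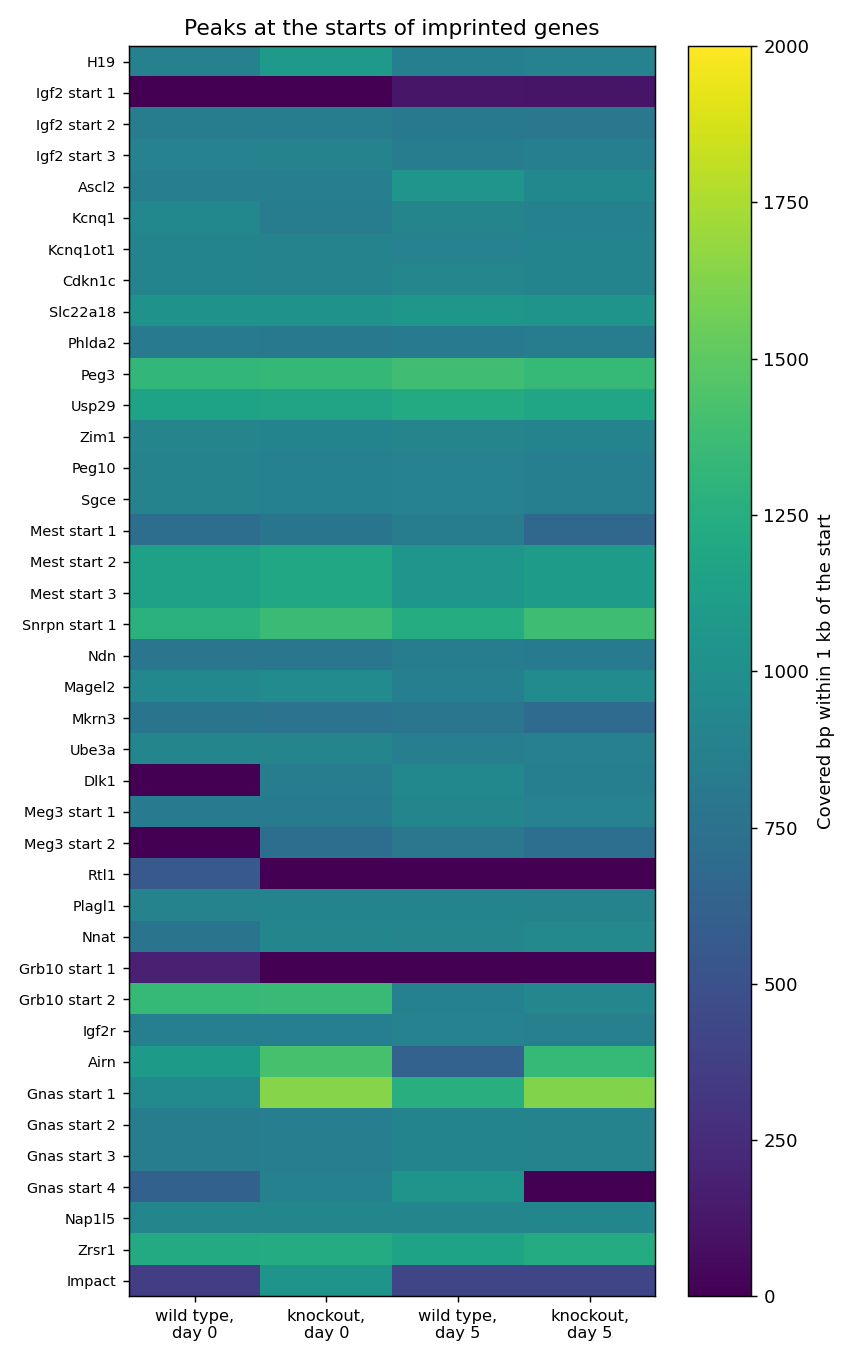
Bases under peaks within 1 kb of each imprinted start (colour, in bp) in the 4 libraries (columns); 4 starts with no base covered in any library, Igf2 start 4 and Snrpn starts 2 to 4, are not drawn. Most rows hold one colour across, and Dlk1, Rtl1, the first Igf2 start, the second Meg3 start, the first Grb10 start and the last Gnas start go to 0 in at least 1 library.

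Most starts that carry a germline mark varied little in covered bp. The peaks carry no height, so covered bp cannot show a change in openness under a peak that stays listed. At Peg3, a zinc finger gene expressed from the paternal copy, peaks covered 1321 bp (wild type) and 1335 bp (knockout) on day 0, and 1389 bp (wild type) and 1336 bp (knockout) on day 5. The Usp29 start lies beside it on the opposite strand under the same peaks. At Snrpn, which encodes a splicing factor subunit and whose start lies in the control region of the Prader-Willi and Angelman cluster, the first start had 1276, 1367, 1242 and 1382 bp covered in the same order. The motif printed above begins 2 bp before that start. The other 3 Snrpn starts, at 60047978, 60140225 and 60450177, had 0 bp in every library.

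The same held for several single genes. The Nap1l5 start, in a nucleosome assembly protein gene, had 921, 918, 916 and 916 bp covered. At Plagl1, a zinc finger regulator of growth, the values were 893, 902, 901 and 895 bp. At Zrsr1, a splicing factor gene, they were 1219, 1233, 1163 and 1232 bp. In each of these genes the highest and lowest library differed by little against the length of a typical peak, whose median width was 873 to 882 bp over the libraries. The shared peak of Peg10 and Sgce, a retrotransposon-derived gene and a sarcoglycan gene that share a start region, spanned 897, 876, 883 and 862 bp. The Nnat start, which also carries a mark, ran from 772 bp in wild type at day 0 to 938 bp in the knockout at day 5.

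Airn differed more than the marked starts given above. Airn is the noncoding RNA that silences Igf2r on the paternal copy, and its start at 12741311 lay under a peak of 786 bp (wild type) and 789 bp (knockout) on day 0 and of 766 bp in the knockout on day 5. In wild type at day 5 no peak covered the start base, and 628 bp within 1 kb were covered against 1087, 1417 and 1336 bp in the other libraries. Igf2r, the receptor that clears the growth factor IGF2, had 861, 865, 890 and 869 bp at its own start. The sequence printed above is thus open over the start base in 3 of 4 libraries, and the one without it is the library with the Y-linked peaks.

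At Kcnq1ot1, the noncoding RNA that silences the Kcnq1 cluster, the start peak spanned 905, 893, 884 and 902 bp. Phlda2, a placental growth regulator of the same cluster, had 828, 805, 825 and 847 bp. Cdkn1c, which encodes a cyclin-dependent kinase inhibitor, had 904, 892, 923 and 899 bp at its high-coordinate end. These 3 starts had nearly equal covered bp in all libraries, while the Ascl2 start of the same cluster had 852, 859, 1040 and 934 bp.

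Several other starts differed between the libraries. Impact, a translation regulator of neurons, had 367 bp (wild type) and 1033 bp (knockout) covered at its low-coordinate end on day 0, and 420 bp (wild type) and 416 bp (knockout) on day 5. The knockout of day 0 alone was high there. Dlk1, which encodes a Notch-like membrane protein of the paternal copy, had 0 bp (wild type) and 848 bp (knockout) covered within 1 kb of its start on day 0, and 934 bp (wild type) and 863 bp (knockout) on day 5. None of these peaks covered the start base. Counted per gene, Dlk1 was the 1 member with a start peak at day 0 in the knockout but none in wild type (2.20% of protein-coding genes), and Rtl1 the 1 member with the converse (1.27%). Between the days in wild type the same genes were again 1 and 1 (2.44 and 2.72%). The counts were 0 and 0 between the genotypes at day 5 (3.33 and 1.54%) and between the days in the knockout (2.49 and 1.90%). All 4 of these non-zero counts rest on the wild-type library of day 0, which both comparisons share.

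Rtl1, a retrotransposon-derived gene of the paternal copy, had 560 bp covered at its high-coordinate end in wild type at day 0 and 0 bp in the others. Meg3, the noncoding RNA of the maternal copy, had 829, 816, 918 and 885 bp at its first start, and 0, 725, 792 and 729 bp at its second. The first Meg3 start was therefore open throughout, and the second lacked a peak in wild type at day 0 as Dlk1 did.

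Gnas, which encodes the stimulatory G protein alpha subunit and uses several starts with opposite parental origin, differed by start. Its first start had 958, 1639, 1254 and 1624 bp covered. Starts 2 and 3, which share a peak, had 841, 859, 904 and 895 bp. The last start had 620, 881, 1035 and 0 bp, so the knockout at day 5 alone had no peak within 1 kb of the GC-rich promoter printed above. The start base itself was covered only in wild type at day 5, the library with the Y-linked peaks, by a peak of 622 bp. A region inside the gene at 174333511 to 174335063 was listed in all libraries but the knockout at day 5, with 779, 1102, 799 and 0 bp.

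At Grb10, a growth factor receptor adaptor expressed from the maternal copy in most tissues and from the paternal copy in neurons, the second start had 1339 and 1357 bp covered at day 0 in wild type and knockout, and 877 and 923 bp at day 5. The peak over that start base differed little, with widths of 884, 926, 877 and 923 bp. The further day 0 coverage lay in a separate region at 12036347 to 12036905, with 455, 504, 0 and 0 bp. The first start had 181 bp in wild type at day 0 and 0 bp in the others. At Igf2, the fetal growth factor, the first start had 0 and 0 bp at day 0 and 122 and 116 bp at day 5 in wild type and knockout, and start 3 had 884, 893, 839 and 863 bp. H19, the noncoding RNA of the maternal copy, had 873, 1076, 861 and 889 bp at its high-coordinate end. A pair of regions beyond that end, at 142579866 to 142580874 and 142581248 to 142582322 on chromosome 7, was listed in all 4 libraries.

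Over whole windows, the clusters together followed the totals of the libraries. Peaks covered 363.8 kb of 3892 kb of windows (wild type, 9.35%) and 401.0 kb (knockout, 10.3%) on day 0, and 361.2 kb (wild type, 9.28%) and 425.9 kb (knockout, 10.9%) on day 5. Knockout over wild type this was 1.10-fold at day 0 and 1.18-fold at day 5, where all autosomal peaks gave 1.12 and 1.21. Day 5 over day 0 it was 0.993-fold in wild type and 1.06-fold in the knockout, where the autosomes gave 0.962 and 1.03. The covered share of single clusters ran from 3.80% at Snrpn-Ube3a to 19.5% at Zrsr1 in wild type at day 0. The median member window was covered to 9.85, 11.5, 11.2 and 12.3%, and the median protein-coding window to 11.5, 12.8, 9.75 and 12.4%. The members were below the protein-coding median in wild type at day 0 and above it in wild type at day 5.

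**Figure D2:**
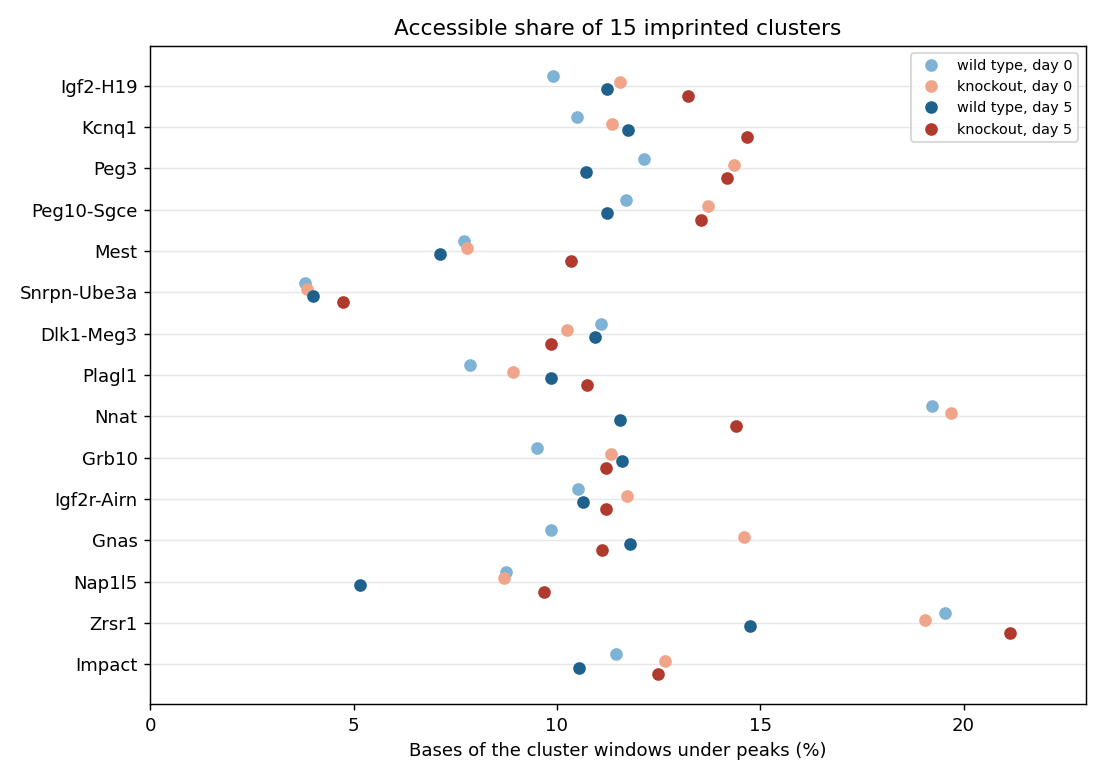
Share of the bases of each cluster's windows that lay under peaks (%), 1 point per library. Snrpn-Ube3a was the least covered cluster in all 4 libraries (3.80 to 4.74%), Nnat was lower on day 5 in both genotypes, and Gnas was most covered in the knockout at day 0 (14.6%).

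The peaks carry no height and the read depth of the libraries is unknown, so each ratio below is the log2 ratio of covered bp (with 500 bp added to both sides) minus the median of the 20802 protein-coding loci with any covered base. A locus counts as higher or lower when it is past 1.5-fold, which is 0.58 on this log2 scale. With no replicates these counts are descriptions. Neighbouring members share windows, so the 15 clusters are given beside the genes. The 4 comparisons share libraries in pairs, and their values are set side by side without relating them.

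Between the genotypes at day 0, no imprinted gene passed 1.5-fold: 0 of 31 were higher and 0 lower, where 4.60 and 3.05% of protein-coding loci were. The median over the members was 0.07, with 19 above 0 and a range of −0.50 to 0.45, beside an interquartile range of −0.13 to 0.17 over all loci. The cluster median was 0.03. At day 5, 1 member was higher (7.92% of loci) and 0 were lower (4.23%), and the median was −0.08, with 12 above 0. The cluster median at day 5 was −0.06. The 19 genes expressed from the paternal copy had medians of 0.09 at day 0 and −0.07 at day 5, and the 10 maternal ones −0.07 and −0.10.

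Between the days in wild type, 4 of 31 were higher (10.0% of loci) and 0 lower (6.28%), with a median of 0.19 and 23 above 0. The 4 were Kcnq1 and Kcnq1ot1, which overlap, and the neighbours Magel2 and Mkrn3. Centred on the total covered bp of the autosomes instead, which places the median protein-coding locus at −0.17, 2 were higher and 2 lower (6.93 and 12.1% of loci), the members' median was 0.03, and 16 were above 0. In the knockout, 2 were higher (7.66%) and 0 lower (2.46%), with a median of 0.08 and 22 above 0, and the higher genes were Kcnq1ot1 and Ube3a. With autosome centring 16 were above 0 there too. The median of the 12 genes listed with a germline mark at a start was 0.04 in wild type and 0.12 in the knockout. Of the 15 clusters, 0 passed 1.5-fold in any comparison.

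**Figure D3:**
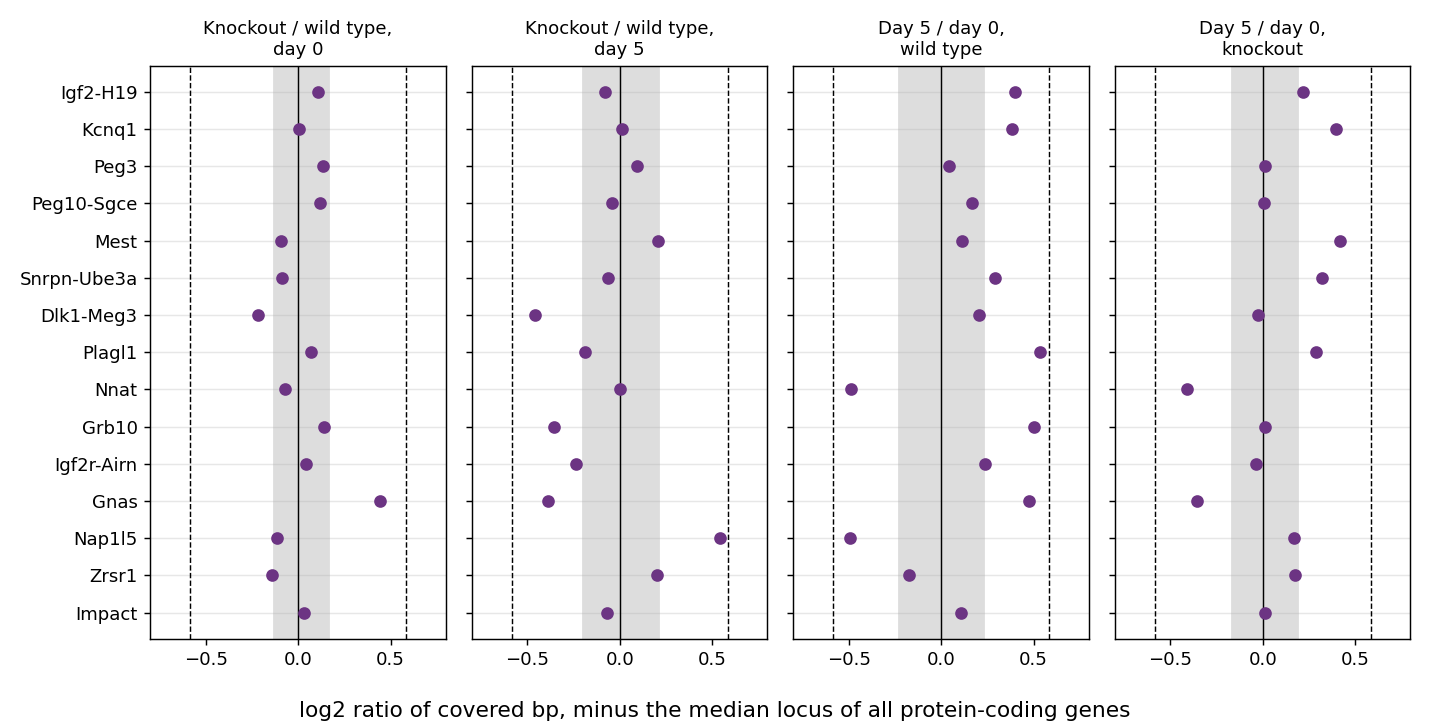
Log2 ratio of covered bp of the 15 clusters in the 4 comparisons, relative to the median protein-coding locus (solid line at 0); the grey band is the interquartile range of all protein-coding loci and the dashed lines mark 1.5-fold. All points lie inside the dashed lines, Kcnq1 lies near 0.4 between the days in both genotypes, and Gnas and Nap1l5 change sides between the days.

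The Kcnq1 cluster (chr7:142916822-143553145) was more covered on day 5 than the median locus in both genotypes, by nearly the same ratio. Its windows held 62.8 kb (wild type) and 68.0 kb (knockout) under peaks on day 0, and 70.4 kb (wild type) and 87.9 kb (knockout) on day 5, in 74, 80, 85 and 103 peaks. Between the days the ratio was 0.39 in wild type and 0.40 in the knockout, and between the genotypes 0.01 at both day 0 and day 5. The ratio between the days kept its sign under all 8 alternative settings, from 0.22 to 0.48 in wild type and from 0.28 to 0.52 in the knockout. The difference was thus present in the comparison that does not use the wild-type library of day 5.

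Inside it, the window of Kcnq1ot1 held 3.49, 4.43, 9.21 and 10.3 kb, and both libraries of day 5 were above both of day 0. Its ratio between the days, 1.5 in wild type and 1.16 in the knockout, was the highest of the 31 genes in each genotype. The window of Kcnq1, a potassium channel gene in which Kcnq1ot1 lies antisense, held 36.5, 38.6, 48.1 and 56.2 kb, with ratios of 0.61 and 0.56 between the days. Peaks have no strand, so openings of these overlapping genes cannot be told apart. Cdkn1c had 19.1, 19.1, 21.9 and 24.4 kb (0.42 and 0.37), while Phlda2 at the end of the cluster had 18.3, 18.1, 16.8 and 18.3 kb (0.10 and 0.04). Ascl2, a trophoblast transcription factor gene at the other end, had 16.4, 19.5, 13.4 and 21.2 kb (−0.06 and 0.15).

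Of the 119 merged regions of this cluster, 57 were listed in all 4 libraries, 10 in both day 5 libraries only and 5 in both day 0 libraries only. Among all merged regions near protein-coding genes, 36.0, 4.48 and 6.01% had these patterns. The widest of the day 5 regions lay at 143427598 to 143429760, 548 bp beyond Kcnq1, with 891 bp (wild type) and 1900 bp (knockout). Others lay in Slc22a18, a transporter gene (143485291 to 143486355), and in Kcnq1, 17283 bp from the Kcnq1ot1 start (143313352 to 143314308). The start peak of Kcnq1ot1 itself had nearly the same width in all libraries, as given above.

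**Figure D4:**
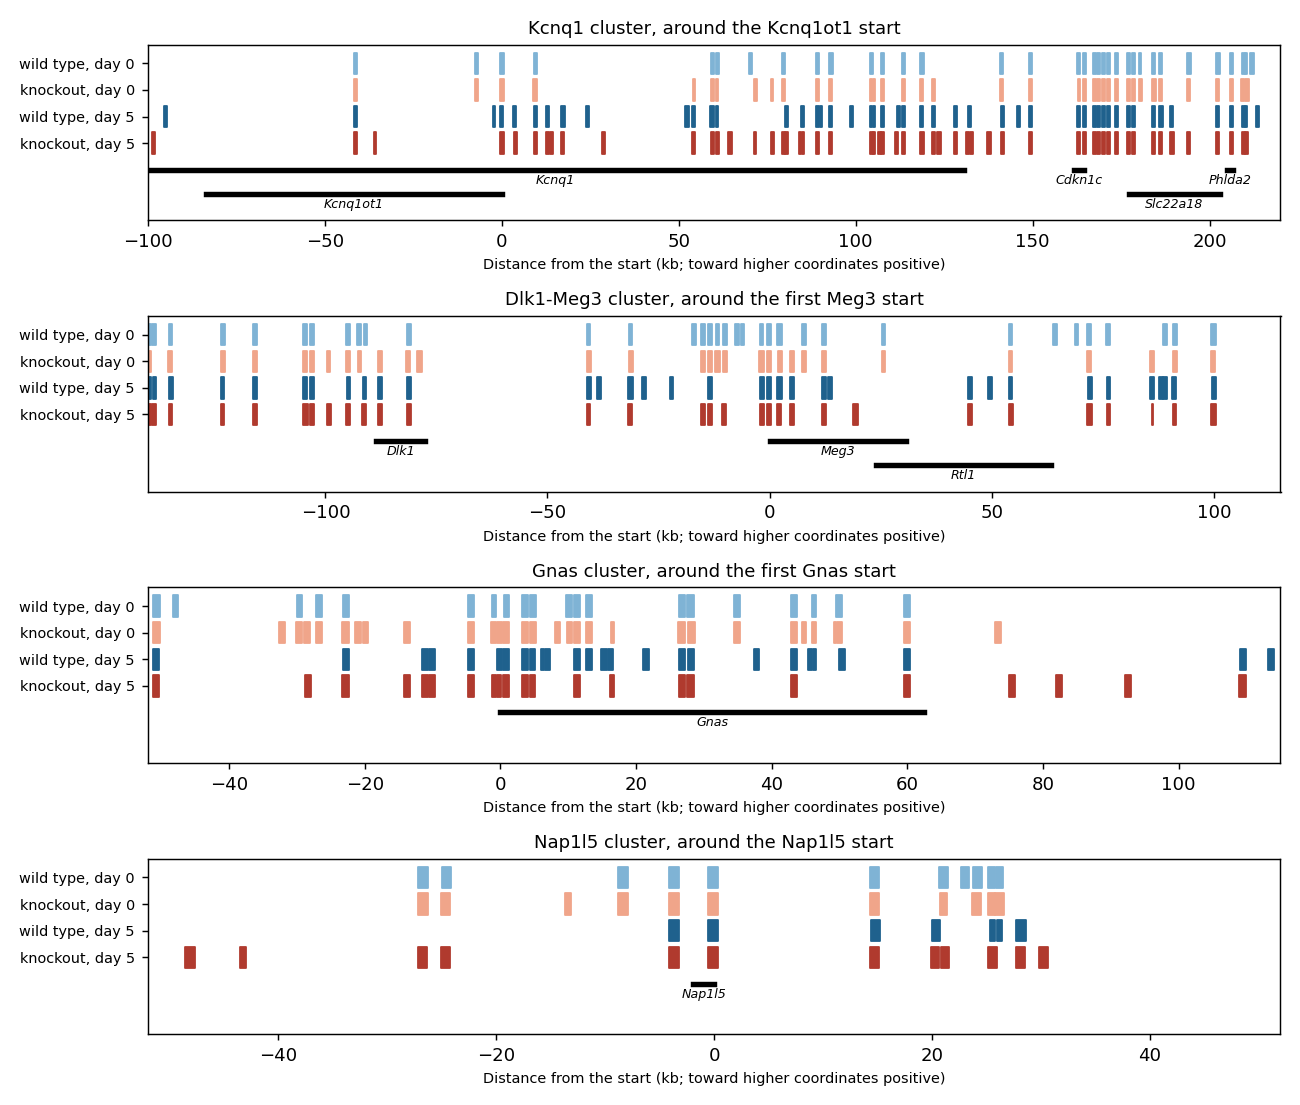
Peaks of the 4 libraries around the Kcnq1ot1, Meg3, Gnas and Nap1l5 starts; the horizontal axes give the distance from the start in kb, each bar is a peak, and black lines are gene bodies. Between the Kcnq1ot1 start and about 30 kb beyond it the day 5 rows hold more peaks than the day 0 rows, and the start positions at 0 hold a peak in all 4 rows of the Kcnq1 and Nap1l5 panels.

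The Dlk1-Meg3 cluster on chromosome 12 had a lower ratio of knockout to wild type than the median locus on both days. Peaks covered 27.9 kb (wild type) and 25.8 kb (knockout) on day 0, and 27.6 kb (wild type) and 24.8 kb (knockout) on day 5, in 33, 29, 32 and 29 peaks. It was the only cluster with fewer covered bases in the knockout on both days. The ratio between the genotypes was −0.22 at day 0 and −0.46 at day 5, and it became 0.46 at day 0 with gene bodies alone. For Meg3 the values were 17.1, 13.3, 15.1 and 13.4 kb, with ratios of −0.46 and −0.48. Dlk1, at the other end, had 9.70, 11.5, 11.9 and 10.8 kb, with ratios of 0.12 and −0.44.

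Of 46 merged regions there, 18 were listed in all libraries, as 36.0% of regions near protein-coding genes were. For the patterns of both day 0 and both day 5 libraries only, given next, the shares near genes were 6.01 and 4.48%. Both day 0 libraries alone listed 4, and the widest of them lay inside Meg3 at 109548220 to 109549151 and 11701 bp before its first start at 109528784 to 109529807. One region was listed in both day 5 libraries only, at 109585607 to 109586532, with 887 bp (wild type) and 880 bp (knockout). It lay over Rtl1, 18349 bp below its high-coordinate end, and over the hairpins of 4 microRNAs, of which miR-337, miR-540 and miR-665 lie on the plus strand, as Meg3 does, and miR-3544 on the minus strand. Their mature sequences from RefSeq are shown because that region covered them on day 5, with the seed, bases 2 to 8, in capitals. No seed was shared between them.
mmu-miR-337-5p: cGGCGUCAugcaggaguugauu
mmu-miR-337-3p: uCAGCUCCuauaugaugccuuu
mmu-miR-3544-5p: aGAAAGGCaucauauaggagcug
mmu-miR-3544-3p: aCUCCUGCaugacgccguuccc
mmu-miR-540-5p: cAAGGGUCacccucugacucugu
mmu-miR-540-3p: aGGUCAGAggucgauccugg
mmu-miR-665-5p: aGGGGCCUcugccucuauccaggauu
mmu-miR-665-3p: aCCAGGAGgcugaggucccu

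The hairpins of miR-337 and miR-3544 overlap. The hairpins of miR-432, miR-136 and miR-3071 lay under a region listed in all 4 libraries, at 109594794 to 109595830.

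The Gnas cluster on chromosome 2 held 16.0 kb (wild type) and 23.7 kb (knockout) on day 0, and 19.1 kb (wild type) and 18.1 kb (knockout) on day 5, in 19, 29, 24 and 21 peaks. The knockout was the higher genotype on day 0 (0.45) and the lower on day 5 (−0.39). Between the days the ratio was 0.47 in wild type and −0.35 in the knockout. All 4 signs were the same under 8 alternative settings, while the size moved with the window: with the gene body alone the ratio was −0.96 between the genotypes at day 5 and −0.76 between the days in the knockout. The window held 10 of 40 regions in all libraries, and 6 in the knockout at day 0 alone. Among regions near protein-coding genes, 36.0 and 7.92% had these patterns. A region at 174255396 to 174256420 was listed in both knockout libraries only, 28412 bp before the first Gnas start.

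Nap1l5 went the other way. Its window held 8.92, 8.87, 5.25 and 9.86 kb, so that 3 libraries were close together and wild type at day 5 was lowest. The ratio between the genotypes was −0.11 at day 0 and 0.54 at day 5, but the value at day 5 was −0.27 with 10 kb flanks and −0.16 with the gene body alone. Between the days it was −0.49 in wild type and 0.17 in the knockout, and the wild-type value was 0.12 with the gene body alone and 0.10 with 100 kb flanks. The knockout value was −0.50 with 10 kb flanks. Its start peak was 916 to 921 bp wide. The low value lay in the flanks, in the library that stood apart.

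Nnat, which encodes a proteolipid of developing neurons, was lower on day 5 in both genotypes. Its window held 19.7 kb (wild type) and 20.2 kb (knockout) on day 0, and 11.8 kb (wild type) and 14.8 kb (knockout) on day 5. The ratio between the days was −0.49 in wild type and −0.41 in the knockout, and became 0.12 and 0.04 with the gene body alone. Between the genotypes it was −0.07 and 0.00. Of 27 merged regions, 5 were listed in both day 0 libraries only and 0 in both day 5 libraries only. Among regions near protein-coding genes, 6.01 and 4.48% had these patterns. The widest of the 5 lay 22735, 7514 and 19707 bp before the Nnat start, at 157536886 to 157537800, 157552072 to 157553057 and 157539911 to 157540831. The Nnat start itself had 772, 918, 907 and 938 bp covered, so its covered bp were not lower on day 5. Without peak heights, a change in openness under those peaks cannot be seen.

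The 5 genes of the Snrpn-Ube3a cluster differed among themselves. The whole cluster held 35.0, 35.6, 36.9 and 43.7 kb, with ratios of 0.29 and 0.32 between the days and −0.09 and −0.06 between the genotypes. With gene bodies alone the wild-type ratio between the days became −0.29 and the ratio between the genotypes at day 5 became 0.44. Magel2, a ubiquitin ligase adaptor, held 9.28 kb (wild type) and 11.4 kb (knockout) on day 0, and 13.2 kb (wild type) and 11.8 kb (knockout) on day 5, with ratios between the days of 0.71 and 0.07. Mkrn3, a ring finger gene that shares flanks with Magel2, held 11.9, 14.0, 17.7 and 17.0 kb (0.77 and 0.30). Both had the higher ratio in wild type, as the feeder and fibroblast loci did (median 0.50 against −0.08), and the part of those loci was not tested.

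Ndn, a melanoma antigen family gene, held 5.04, 6.26, 5.18 and 8.98 kb (0.26 and 0.52). Ube3a, the ubiquitin ligase gene whose maternal copy is lost in Angelman syndrome, held 4.10, 3.00, 3.66 and 5.15 kb (0.08 and 0.72). Ube3a had the lowest ratio of all members between the genotypes at day 0 (−0.50). Its start peak spanned 916, 908, 852 and 873 bp, so the differences lay outside that peak. A region inside Magel2, at 62379774 to 62381365, was listed in both knockout libraries only, with 1284 bp at day 0 and 852 bp at day 5.

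Zim1, a zinc finger gene of the maternal copy beside Peg3, was the 1 member past 1.5-fold between the genotypes at day 5 (0.64). Its window held 10.8 kb (wild type) and 12.1 kb (knockout) on day 0, and 7.48 kb (wild type) and 14.9 kb (knockout) on day 5. The wild-type library of day 5 was lowest, and the ratio at day 0, which does not use it, was 0.05. With 100 kb flanks, 2000 bp added in place of 500 bp, or equal numbers of the widest peaks, 0 members passed in this direction, where 6.48, 4.46 and 9.12% of loci did. Regions at 6692059 to 6693139 and 6677087 to 6678102, both inside Zim1, were listed in both knockout libraries only. The whole Peg3 cluster held 47.7, 56.4, 42.1 and 55.7 kb and had ratios of 0.13 and 0.10 between the genotypes.

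Plagl1, Grb10 and Igf2r were more covered on day 5 than the median locus in wild type, and had smaller ratios in the knockout. Plagl1 held 11.1 kb (wild type) and 12.6 kb (knockout) on day 0, and 13.9 kb (wild type) and 15.1 kb (knockout) on day 5, with ratios between the days of 0.54 and 0.29. Grb10 held 19.7, 23.4, 24.0 and 23.2 kb (0.50 and 0.01). Igf2r held 17.2, 21.5, 21.0 and 19.7 kb (0.50 and −0.09), and Airn 27.5, 31.5, 26.9 and 30.2 kb (0.19 and −0.03). In all 4 genes the higher ratio was the one that uses the wild-type library of day 5. Whether the ratios differ between the genotypes was not tested.

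Igf2 held 10.7, 11.9, 13.02 and 15.3 kb (0.49 and 0.37 between the days), and H19 10.0, 12.1, 10.2 and 12.6 kb (0.26 and 0.08). Mest, a hydrolase gene of the paternal copy, held 8.86, 8.94, 8.19 and 11.9 kb, with ratios of 0.11 and 0.42 between the days. The wild-type ratio turned with the processing, to −1.18 with the gene body alone, −0.16 with 10 kb flanks and −0.05 with autosome centring. The ratio between the genotypes at day 5 was 0.21, and 1.14 with the gene body alone. In the knockout, the ratio between the days was 0.74 with equal numbers of the widest peaks and 0.63 with 100 kb flanks. A region inside Mest at 30735166 to 30736098, 2126 bp past its first start, was listed in both day 0 libraries only, with 823 bp (wild type) and 925 bp (knockout). Peg10 held 14.4, 16.9, 11.5 and 15.2 kb, Sgce 20.1, 23.8, 19.7 and 22.5 kb, Zrsr1 20.4, 19.9, 15.4 and 22.1 kb, and Impact 15.8, 17.5, 14.6 and 17.3 kb. These 4 genes stayed within 0.20 of the median locus on the log2 scale in every comparison with 50 kb flanks. With the gene body alone Zrsr1 had a ratio of 0.44 between the days in wild type. Under the alternatives Impact reached 0.36 and −0.40 between the genotypes at day 0 and day 5. Between the days Impact reached 0.31 in wild type and −0.29 in the knockout, and the Peg10-Sgce cluster reached 0.32 in the knockout.

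Most peaks in the imprinted windows were shared between libraries. At day 0, 80.2% of the knockout peaks in the windows overlapped a wild-type peak by at least 1 bp (95% exact binomial interval 76.3 to 83.7), against 75.3% of all knockout peaks. At day 5, 70.3% did (66.1 to 74.3), against 64.0%. Between the days, 72.0% of the wild-type day 5 peaks overlapped one of day 0 (67.5 to 76.2), against 66.9%, and in the knockout 75.5% did (71.5 to 79.2), against 72.6%. Of these intervals, only the last holds the share over all peaks. In reverse at day 0, 86.6% of wild-type peaks overlapped a knockout peak (83.1 to 89.7), and this interval holds the 84.1% of all wild-type peaks. The other reverse intervals lay above the share over all peaks. Those shares were 81.8% at day 5 (against 76.8%), and between the days 70.7% in wild type (63.9%) and 80% in the knockout (74.6%). All peaks include those far from genes. Regions near genes were in every library more often than all regions (36.0 against 33.8%).

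Joined across libraries, the peaks formed 675 regions in the windows, of 328524 in the genome and 266257 near protein-coding genes. In all 4 libraries 281 were listed (41.6%, 37.9 to 45.5), against 36.0% near genes. Both knockout libraries alone listed 21 (3.11%, against 3.66%), and both wild-type libraries alone listed 4 (0.593%, against 0.857%). Both day 0 libraries alone listed 38 (5.63%, against 6.01%) and both day 5 libraries alone 28 (4.15%, against 4.48%). For these 4 patterns of 1 genotype or 1 day, the interval of the imprinted share held the share near genes. Over all 15 patterns, 12 intervals did. Beside the regions of all 4 libraries, which were above the share near genes, the other 2 exceptions were below it: the knockout of day 0 alone listed 36 (5.33%, 3.76 to 7.31, against 7.92%), and all libraries but wild type at day 5 listed 44 (6.52%, 4.78 to 8.65, against 9.11%). These intervals cover counting error only, treat neighbouring regions as independent and make no allowance for looking at 15 patterns, so they are no test. With equal numbers of the widest peaks, the share in all 4 libraries was lower, as given below.

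**Figure D5:**
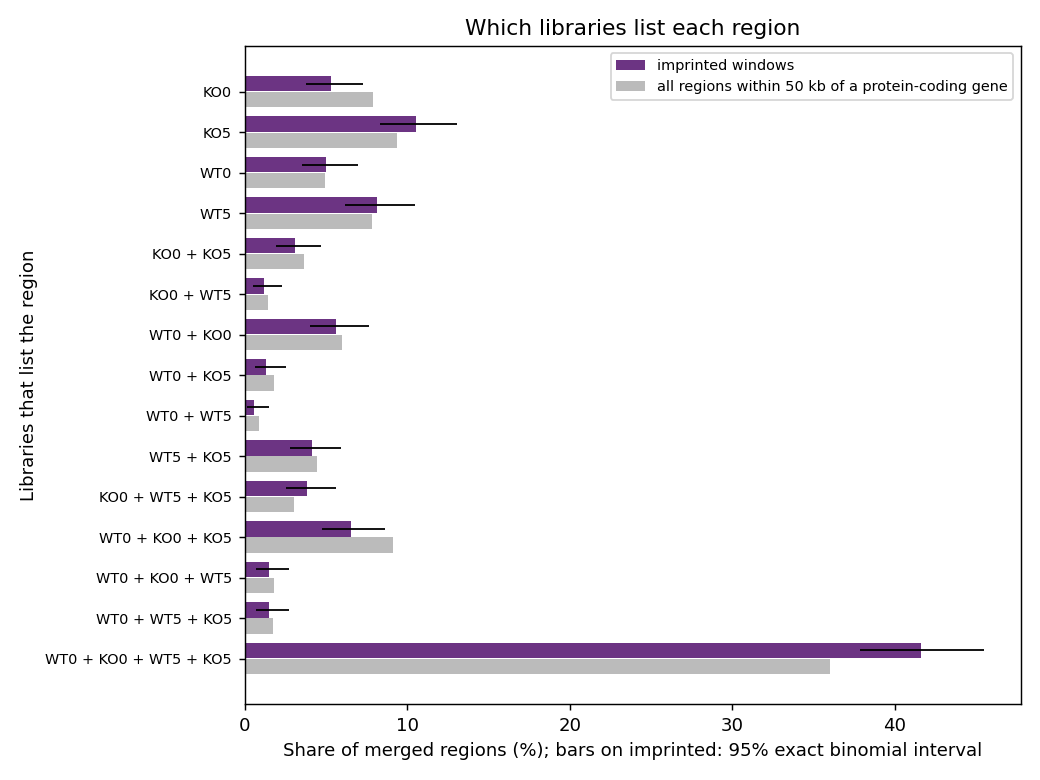
Share of merged regions (%) by the set of libraries that list them, for the imprinted windows (purple, with 95% exact binomial intervals) and for all regions near protein-coding genes (grey); WT0, KO0, WT5 and KO5 are wild type and knockout at day 0 and day 5. Regions in all 4 libraries make up 41.6% in the imprinted windows and 36.0% near genes.

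The 20 genes listed as keepers or erasers of imprints, among them Zfp57, Trim28, Dnmt1, Uhrf1 and the Tet genes, had a start peak in every library (20 of 20, against 69.9% of protein-coding genes). Their median locus ratios were −0.08 at day 0 and 0.06 at day 5 between the genotypes, and −0.19 in wild type and 0.03 in the knockout between the days. Hells, a chromatin remodeller needed for DNA methylation, was the 1 regulator of 20 past 1.5-fold, lower on day 5 in wild type (−0.74), a call that 6.28% of protein-coding loci had in that comparison. It held 19.4 kb (wild type) and 22.3 kb (knockout) on day 0, and 9.75 kb (wild type) and 17.6 kb (knockout) on day 5, and wild type at day 5 was lowest. Tet3, a methylcytosine oxidase, held 21.4, 32.7, 18.2 and 33.0 kb, and the knockout was higher on both days (0.50 and 0.53).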

How the data were processed

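The authors deposited 1 list of peak coordinates per library, with chromosome, start and end only. The caller was cellranger-arc 2.0.0 with an mm10 reference, run on each library by itself, per the file headers, and the submitters' processing notes also name Scanpy 1.7.2. Whether doublets were removed is not given in the sources used here, and the RNA side was not used here. Depth is unknown, and peak numbers stand in for it.

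Windows were gene bodies with 50 kb flanks from a GRCm38.p6 gene table, merged within a cluster. Covered bp were compared as log2 ratios with a pseudocount of 500 bp, centred on the median of 20802 protein-coding loci. Starts came from the RefSeq promoter table. For 7 members and 4392 protein-coding genes without an entry, the more covered gene end was used. Peaks were shared with at least 1 bp of overlap. Analyses used Python 3.11.15, NumPy 2.4.6, pandas 2.3.3, SciPy 1.17.1 and matplotlib 3.10.9, and were tested on simulated data. With 1 library per group no test was run.

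All 31 members are named. Per cluster, the regions named are those at starts and up to 3 shared within a genotype or a day, the widest first. Of the regulators and other imprinted genes, some but not all of the highest and lowest ratios are named. The other named regions (inside Gnas, beyond H19 and over microRNAs) were chosen after their values were seen. Members, lists and motifs were chosen with earlier results of these data known. Alternatives were flanks of 0, 10 and 100 kb, pseudocounts of 100 and 2000 bp, numbers of peaks, equal numbers of the widest peaks, autosome centring, a minimum of 2000 bp, 1 value per cluster, start windows of 500 bp or the start base, a reciprocal overlap of 50%, regions of at least 500 bp, and leaving out the wild-type library of day 5.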

Additional observations from a re-analysis of the deposited data

Results flagged for a closer look

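At the Gnas cluster the knockout lay above wild type on day 0 and below it on day 5, and the day 5 ratio minus the day 0 ratio was −0.83 (log2). Seen between the days, wild type was above 0 and the knockout below, and the knockout ratio minus the wild-type ratio was −0.83. At the Nap1l5 cluster the signs were opposite in both views, with differences of 0.66 between the days and 0.66 between the genotypes. Each view uses the same 4 libraries, so the paired values are not independent. With 1 library per group the differences were not tested. Both clusters use the wild-type library of day 5, whose Y-linked and feeder loci are given in the report, and the part of those loci was not tested.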

How the results depend on the processing

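No paired analysis was possible because each group held 1 library and no result comes from a test. The members' median ratio ranged over the alternatives from −0.04 to 0.07 between the genotypes at day 0, from −0.11 to −0.05 at day 5, from 0.03 to 0.31 between the days in wild type and from −0.04 to 0.15 in the knockout. The counts past 1.5-fold are small and moved with the window, as the share of all protein-coding loci past it did, which stands in brackets. With 10 kb flanks, 1 member was higher and 2 lower in the knockout at day 0 (7.47 and 3.90%), 2 higher and 3 lower at day 5 (11.3 and 6.85%), and in the knockout 4 were higher and 1 lower between the days (8.89 and 7.16%). With gene bodies alone, 4 were higher and 1 lower at day 0 (11.3 and 5.49%), 5 higher and 1 lower at day 5 (17.9 and 6.28%), and 2 were lower between the days in each genotype (19.1% in wild type and 11.2% in the knockout). At day 5, 0 were higher with 100 kb flanks (6.48%), a pseudocount of 2000 bp (4.46%), the widest peaks in equal numbers (9.12%) or 1 value per cluster, and with the widest peaks 1 was lower (4.51%). Between the days, 0 clusters were higher in either genotype with 1 value per cluster, and autosome centring gave 2 higher and 2 lower in wild type (6.93 and 12.1%). In the knockout 1 was higher between the days with a pseudocount of 2000 bp (4.51%) or with numbers of peaks (7.34%). With equal numbers of the widest peaks, the overlap with the other genotype was 79.0% for wild-type peaks at day 0, 74.5% for knockout peaks at day 5 and 68.1% for wild-type peaks at day 5, 73.4% of knockout day 0 peaks overlapped one of day 5, and regions in every library made up 36.6% and those of both wild-type libraries alone 3.60%. The shares over all peaks and near genes were not computed for that setting. Without the wild-type library of day 5, an alternative chosen after seeing the data, 52.1% of regions were in every library. Fewer libraries then have to list a region, and the share near genes was not computed for that setting either. For moved values not otherwise explained by their construction, the cause was not tested. Of the cluster ratios, 459 values under the alternatives moved by less than 1.5-fold and stayed on their side of 1.5-fold, and 21 did not. The 459 include values that changed sign. The sign held in 3 of 8 alternatives for Nnat between the genotypes at day 5 and for Grb10 between the days in the knockout. These were the fewest of any cluster ratio, and other ratios kept their sign in up to 8 of 8. Unknown depth limits all statements on missing peaks.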

Other observations

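Of 35 further imprinted genes listed, 34 were matched and 24 lay outside the windows of the report. Over the 24, the median locus ratios were −0.01 and −0.03 between the genotypes at day 0 and day 5, and 0.08 and 0.13 between the days in wild type and in the knockout. Dcn, a matrix proteoglycan gene that fibroblasts express strongly, held 2.22 kb in wild type at day 0, 3.55 kb in the knockout at day 0, 6.30 kb in wild type at day 5 and 4.27 kb in the knockout at day 5. Its ratio between the days was 1.55 in wild type and 0.26 in the knockout. Dio3, the deiodinase gene beyond Dlk1-Meg3, held 7.93, 8.47, 3.21 and 6.61 kb, with ratios of −0.96 in wild type and −0.31 in the knockout. Htr2a, a serotonin receptor gene, was higher in the knockout at day 0 (0.67) and near the median locus at day 5 (−0.03). Between the genotypes, 1 of the 24 was past 1.5-fold higher and 0 lower at day 0 (4.60 and 3.05% of protein-coding loci). At day 5, Th (0.70) and Dio3 (0.63) were higher and Dcn (−0.82) and Slc22a2 (−0.72) lower (7.92 and 4.23%). Between the days, 2 were higher and 1 lower in wild type (10.0 and 6.28%), and 0 and 0 in the knockout (7.66 and 2.46%).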
